A study of Bos taurus with 47 samples.

Results

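In all, 48 of the 20526 genes measured in bovine oocytes, embryos and cultured cells were abundant in mature oocytes and low by the 8-cell stage of fertilized embryos. They were chosen by 3 conditions on the median normalised count of a group's libraries: at least 100 in oocytes, at most 25% of the oocyte median in 8-cell embryos made by in vitro fertilization (IVF), and at most 25% of it in cells derived from IVF blastocysts. Of the 20526 genes, 7779 had an oocyte median of at least 100. Of those 7779, 91 met the 8-cell condition, 2165 met the condition on derived cells and 48 met both. The limit of 250 genes set for the list was not reached, and 0 members were left out by identifier. Values in oocytes, IVF 8-cell embryos and IVF blastocyst-derived cells chose the genes. Comparisons that use the oocyte or IVF 8-cell libraries therefore only describe the members, and nothing is read from them. Their counts are printed beside the share of all genes where that share was taken.

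The study set embryos made by nuclear transfer from a somatic cell (scNT), where a body cell's nucleus takes the place of the oocyte's own, beside embryos made by IVF through the maternal-to-embryonic transition. The 12 groups were scNT and IVF 2-cell embryos (day 2 after scNT or IVF), 8-cell embryos (day 3), morulae (day 6) and blastocysts (day 8), cells derived from scNT and from IVF blastocysts, fibroblasts, and MII oocytes matured in vitro. Every group had 4 libraries except scNT morulae, which had 3, numbered 2, 3 and 4 in the labels. Embryos were collected in pools of 20, so each library averages over embryos. Fibroblasts came from an ear biopsy of a Brahma Spanish cross bull, and cells of that source at passages 4 to 5 were the scNT nuclear donors. The IVF embryos were sired with semen of a Holstein bull, so scNT and IVF embryos differ in genetic background as well as in method. Both kinds of embryo were cultured with bovine cumulus cells, and the scNT embryos were built on enucleated oocytes. The labels do not say that replicate pools came from different animals or cultures, so the p-values below reflect the spread among pools, and that spread may be technical.

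A growing oocyte stores messenger RNA that supports the embryo until its own genome is transcribed. During maternal-to-embryonic transition these stored messages are removed, first by pathways already present in the egg and later by pathways that need embryonic transcription, while the embryonic genome takes over. In cattle the main wave of embryonic transcription is known to begin around the 8-cell stage. In scNT embryos the same stored messages meet a nucleus that came from a differentiated cell. The table lists genes by Ensembl identifier alone, and 0 of the 20526 identifiers matched the reference used here, so the members have no names or roles below. For the same reason no marker list could be applied, and the labelled cell types were not checked against markers.

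The deposited values are reads per gene corrected for library depth and not for gene length, so levels are compared between groups for 1 gene and not between genes. They are relative to the other transcripts of the same library and do not give the amount of RNA per embryo. In these bulk samples, fewer cells that hold a transcript cannot be told apart from less of it per cell. Whole reads recovered from the table added up to between 4608099 and 16642362 per library. At these depths a normalised count of about 1 is a single read or so, and statements on depth cover counting error only.

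Oocyte medians of the 48 members ran from 104.9 to 7111, with a median over members of 500.3. The oocyte median was between 4.05 and 47.0 times the IVF 8-cell median, with a median ratio of 5.03. The ratio was at most 5 for 23 members and over 10 for 6. Just inside the limit of 4 lay ENSBTAG00000015519, with a median of 446 in IVF 8-cell embryos and 1808 in oocytes, and ENSBTAG00000018416, with 35.3 in IVF 8-cell embryos and 144.9 in oocytes. Just outside it lay ENSBTAG00000012657, with 1600.1 in IVF 8-cell embryos and 6337 in oocytes, and ENSBTAG00000000442, with 69.5 and 274.9 in those groups. Many members therefore sit close to the limit, and a limit of 8 on both ratios would keep 8 genes.

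The members with the highest oocyte medians were ENSBTAG00000014512 and ENSBTAG00000014834. For ENSBTAG00000014512 the median was 7111 in oocytes, then 7306 in scNT and 5499 in IVF 2-cell embryos, 2901 in scNT and 1440.0 in IVF 8-cell embryos, 471 in scNT and 906 in IVF morulae, and 421 in scNT and 404 in IVF blastocysts. This gene stayed near its oocyte level at the 2-cell stage in scNT embryos and was low from the morula on. For ENSBTAG00000014834 the median was 6013 in oocytes, then 1481 in scNT and 1504 in IVF 2-cell embryos, 827 in scNT and 614 in IVF 8-cell embryos, 184 in scNT and 495 in IVF morulae, and 26.1 in scNT and 27.3 in IVF blastocysts. Most of its level was gone by the 2-cell stage, and its median was 0 in both kinds of derived cells.

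The list as a whole had a lower level left at each stage to the morula. Members were chosen for high oocyte values and for low values in IVF 8-cell embryos and IVF blastocyst-derived cells. This course, and its gap to all 7779 genes abundant in oocytes, are therefore partly set by that choice and are a description. The level left, as a percentage of a member's oocyte median, had a median over the 48 members of 59.1% in scNT and 46.7% in IVF 2-cell embryos, 28.2% in scNT and 19.9% in IVF 8-cell embryos, and 6.07% in scNT and 12.8% in IVF morulae. It was 3.05% in scNT and 4.81% in IVF blastocysts, 3.09% in scNT and 3.32% in IVF blastocyst-derived cells, and 1.48% in fibroblasts. Over all 7779 genes with an oocyte median of at least 100, the same median was 108% in scNT 2-cell and 103% in IVF 2-cell embryos, 101.4% in scNT and 90.4% in IVF 8-cell embryos, and 62.6% in scNT and 66.4% in IVF morulae. The scNT value was above the IVF value at the 2-cell stage and below it at the morula. At the 8-cell stage the IVF value was low by the choice of members, so its order against scNT is no result.

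Taken per library, the median level left was 56.1 ± 7.54% in scNT 2-cell and 45.0 ± 15.7% in IVF 2-cell embryos, each with n = 4 and its SD. At the 8-cell stage scNT libraries gave 27.3 ± 4.79% and IVF libraries 18.4 ± 6.29%, again with n = 4 and the SD. It was 5.80 ± 0.973% in scNT morulae (SD, n = 3) and 13.2 ± 1.55% in IVF morulae (SD, n = 4). The libraries of the scNT and IVF groups overlapped at the 2-cell and 8-cell stages, and they did not overlap at the morula, where scNT ran from 4.71% to 6.57% and IVF from 11.4% to 15.2%. In blastocysts the values were 4.18 ± 0.128% in scNT and 4.56 ± 0.0493% in IVF (SD, n = 4 each). The blastocyst libraries did not overlap either, with scNT from 4.06% to 4.31% and IVF from 4.51% to 4.62%. Member by member the order in blastocysts was mixed. The group median was higher in scNT for 26 members, higher in IVF for 21 and equal for 1. The blastocyst gap therefore does not show a lower scNT level across the list.

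**Figure D1:**
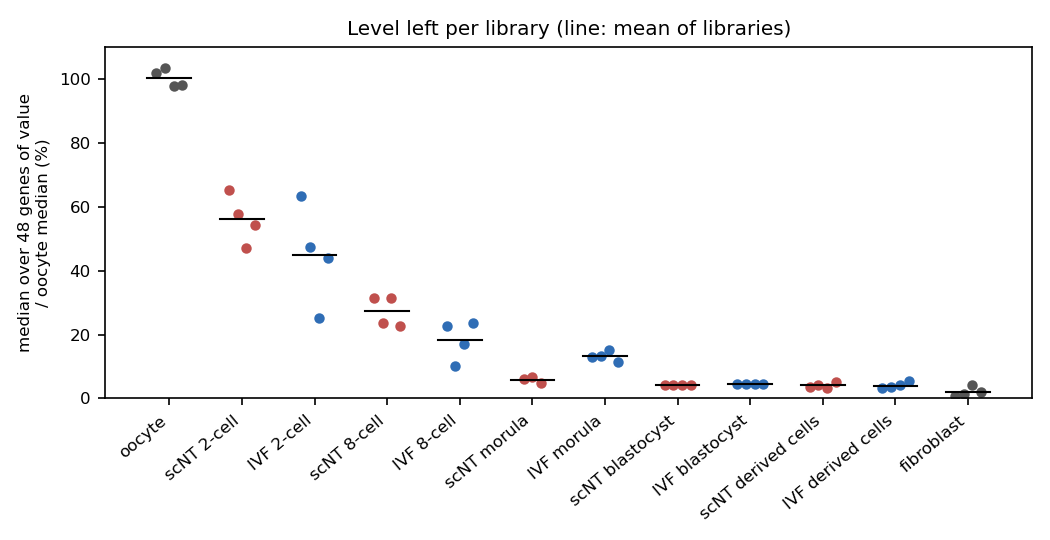
Median over the 48 members of the level left, in percent of each member's oocyte median, for every library (points) by stage, with scNT in red, IVF in blue and oocytes and fibroblasts in grey. The 3 scNT morula libraries lie between 4.71% and 6.57%, all below the 4 IVF morula libraries.

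The members together made up 0.678 ± 0.0225% of all normalised counts in oocytes (SD, n = 4). The share was 0.394 ± 0.0575% in scNT 2-cell and 0.317 ± 0.107% in IVF 2-cell embryos, 0.170 ± 0.0116% in scNT and 0.112 ± 0.0332% in IVF 8-cell embryos, and 0.0643 ± 0.00724% in scNT and 0.0970 ± 0.0106% in IVF morulae. It was 0.0554 ± 0.00262% in scNT and 0.0531 ± 0.00565% in IVF blastocysts, and 0.0380 ± 0.00217% in scNT and 0.0369 ± 0.00308% in IVF blastocyst-derived cells (SD, n = 4 except 3 scNT morulae). This summed share is led by the most abundant members, whereas the median level left counts each member once. The means of both measures were higher in scNT than in IVF embryos at the 2-cell stage and lower in scNT at the morula.

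The level left differed between members. At most 25% of the oocyte median was left for 5 of 48 members in scNT and 8 in IVF 2-cell embryos, for 21 in scNT 8-cell embryos, where the list was not chosen, and for all 48 in IVF 8-cell embryos, where it was. Of the 7779 oocyte genes, 61, or 0.784%, were at or under that level in scNT 8-cell embryos. All 48 members were lower in each scNT 8-cell library than in each oocyte library. Members were chosen for high oocyte values, which favours this order. The count has no share of all genes beside it, and nothing is read from it. At the morula 40 members in scNT and 41 in IVF were at or under 25%, and at the blastocyst 41 in scNT and 42 in IVF. Of the 7779 oocyte genes, 20.2% were at or under that level in scNT and 7.11% in IVF morulae. In blastocysts the shares of those genes were 27.9% in scNT and 26.3% in IVF. Of the drop between oocyte and 8-cell medians, the part already present at the 2-cell stage had a median over members of 65.7% in scNT (quartiles 36.5% and 81.1%) and 66.7% in IVF (quartiles 49.2% and 82.8%).

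**Figure D2:**
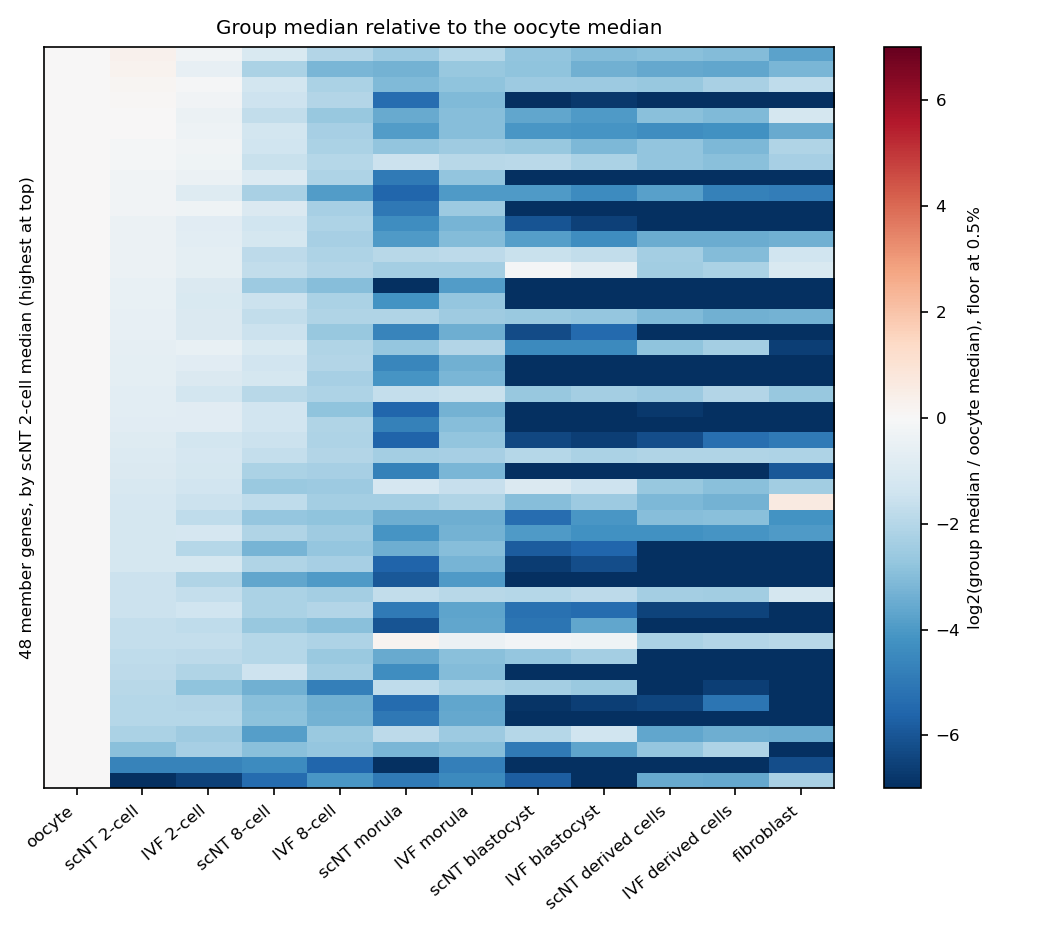
Level left, in percent of the oocyte median on a log colour scale with a floor of 0.5%, for the 48 members (rows, ordered by their scNT 2-cell median) in the 12 groups (columns). Rows range at the 2-cell stage from members almost absent to 6 members above their oocyte median in scNT embryos. All 48 rows are at or under 25% in both columns of derived cells, which the choice of members required for the IVF column.

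There were 4 members with at most 25% of the oocyte median left at the 2-cell stage in both scNT and IVF embryos, a grouping made after their values were seen: ENSBTAG00000007392, ENSBTAG00000007239, ENSBTAG00000001687 and ENSBTAG00000007402. ENSBTAG00000007392 had the highest ratio of oocyte to IVF 8-cell level in the list. It had 50.6, 59.9, 120.3 and 53.9 normalised counts in scNT 2-cell libraries 1 to 4, 46.8, 59.4, 53.1 and 65.0 in IVF 2-cell libraries, and 1633, 2117, 879 and 1232 in oocyte libraries. Every 2-cell library lay far below every oocyte library, and the scNT and IVF libraries overlapped. ENSBTAG00000007239 had 1.6, 0, 2.5 and 0 in scNT 2-cell libraries, 0, 2.6, 43.9 and 0 in IVF 2-cell libraries, and 139.2, 154.1, 90.9 and 99.9 in oocyte libraries. It was close to 0 in all 2-cell libraries except IVF library 3. ENSBTAG00000007402, by contrast, came back after the 8-cell stage, as given below.

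Another 8 members kept more than 75% of the oocyte median at the 2-cell stage in both kinds of embryo, again a grouping made after their values were seen. One of them was ENSBTAG00000014512, described above, and another was ENSBTAG00000038976. ENSBTAG00000038976 had 662, 482, 474 and 629 in scNT 2-cell libraries, 702, 503, 185 and 503 in IVF 2-cell libraries, and 631, 692, 623 and 838 in oocyte libraries. The groups overlapped at the 2-cell stage, and IVF library 3 stood lowest. In the blastocyst the same gene was at 0 to 4.6 in scNT and 0 to 3.8 in IVF libraries, and in fibroblasts it was at 0 in all 4 libraries.

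A comparison of 2-cell embryos with oocytes shares the oocyte libraries with the choice of members, and the scNT and IVF versions share those libraries with each other, so their counts are a description of chosen values, no evidence of loss and no enrichment over the shares printed beside them. At a Benjamini-Hochberg adjusted p under 0.05 in limma, run over all genes that passed a filter on low values, 32 of 48 members were lower and 0 higher in scNT 2-cell embryos than in oocytes, where 8.65% of all tested genes were lower and 9.83% higher. In IVF 2-cell embryos 18 of 48 were lower and 0 higher than in oocytes, where 1.03% of all tested genes were lower and 0.0244% higher. All 48 members passed the filter in both comparisons, 1 of them through the oocyte group alone against scNT. The members' median log2 difference was -0.86 for scNT and -1.24 for IVF 2-cell embryos against oocytes, beside 0.06 and -0.01 over all tested genes in those comparisons. All 4 scNT 2-cell libraries lay below all 4 oocyte libraries for 33 of 48 members, against 9.74% of all tested genes, and all 4 IVF 2-cell libraries did so for 31, against 6.59%.

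The size of the difference is given for a few members, as a difference of log2(value + 1), a scale that understates the change of low genes, and with no test. ENSBTAG00000007239, the member that passed the filter against scNT through the oocytes alone, differed by -6.10 between scNT 2-cell embryos and oocytes and by -5.06 between IVF 2-cell embryos and oocytes. Its scNT libraries held 0 to 2.5 normalised counts, so the size depends on the pseudocount, and with a pseudocount of 5 the scNT difference was -4.38. ENSBTAG00000007392 differed from oocytes by -4.36 ± 0.35 in scNT 2-cell embryos and by -4.62 ± 0.26 in IVF 2-cell embryos (SE). ENSBTAG00000001154 had 80.7, 53.6, 33.5 and 34.0 in IVF 2-cell libraries and 357, 319, 295 and 225 in oocyte libraries. Its groups did not overlap, and the difference was -2.62 ± 0.30 (SE).

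The IVF count rests on single libraries. Of the 18 calls in IVF 2-cell embryos, 6, 7, 7 and 9 members were called without oocyte library 1, 2, 3 or 4 in turn, 9 without IVF library 2 and 10 without IVF library 4, whereas 30 were called without IVF library 3. IVF 2-cell library 3 was the lowest of its group for 41 of 48 members, and IVF library 1 the highest for 40. In the scNT group, 2-cell library 3 was likewise the lowest for 34 of 48 members. Both libraries numbered 3 had the fewest recovered reads of their groups, 5939973 in IVF and 6680061 in scNT. The median level left ran from 25.2% to 63.4% over the 4 IVF 2-cell libraries, against 47.1% to 65.2% over the 4 scNT 2-cell libraries. The part of IVF library 3 in the differences between scNT and IVF 2-cell embryos was not tested beyond leaving it out.

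Between the 2-cell and 8-cell stages of scNT embryos the members fell, in libraries that the choice of members did not use. In scNT 8-cell embryos 29 of 48 members were lower and 0 higher than in scNT 2-cell embryos (limma, Benjamini-Hochberg adjusted p under 0.05), where 4.86% of all tested genes were lower and 0.821% higher. The members' median log2 difference was -0.90, with a range of -2.44 to 0.81, beside 0.03 over all tested genes. All 4 scNT 8-cell libraries lay below all 4 scNT 2-cell libraries for 34 of 48 members, against 9.22% of all tested genes. Of the 48 members 47 passed the filter, and 0 of them passed through 1 group alone. The genes were still chosen for a low IVF 8-cell level, so scNT embryos of the same stage are a second method and not an unrelated sample.

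ENSBTAG00000014373 showed the largest fall at this step. It had 582, 408, 482 and 798 normalised counts in scNT 8-cell libraries, against 2920, 3464, 3059 and 2558 in scNT 2-cell libraries. The groups did not overlap, with means of 567 ± 169 and 3000.2 ± 374 (SD, n = 4 each) and a log2 difference of -2.44 ± 0.20 (SE, limma adjusted p = 0.000319). ENSBTAG00000011334 had 708, 367, 778 and 828 in scNT 8-cell libraries, against 3634, 3579, 2124 and 2491 in scNT 2-cell libraries. These groups did not overlap either, and the log2 difference was -2.17 ± 0.28 (SE, limma adjusted p = 0.00216). Without scNT 2-cell library 1 or 2 the number of members called at this step was 17 or 16.

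**Figure D3:**
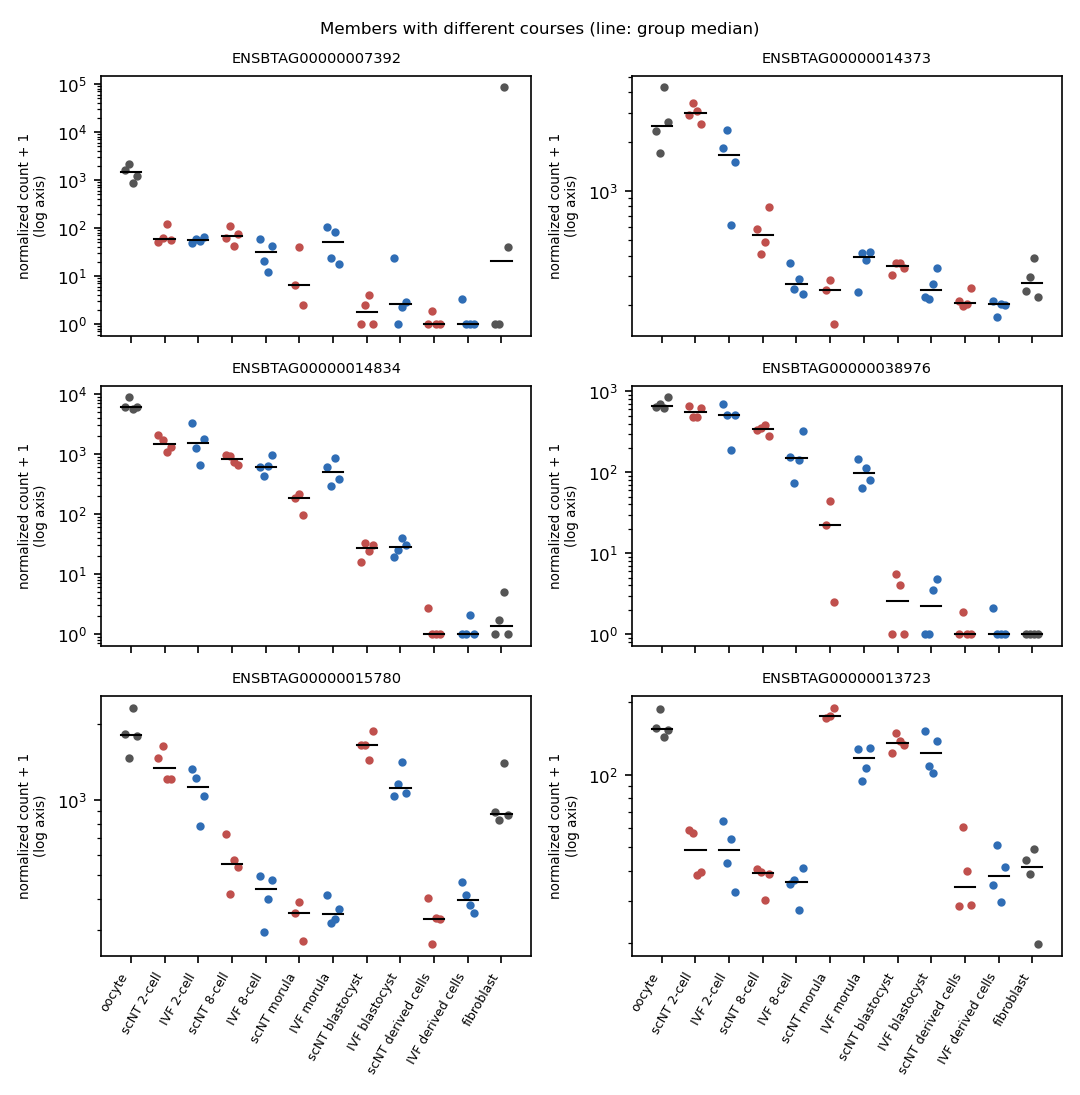
Normalised counts (log axis) of 6 members in every library of each group, with scNT in red, IVF in blue and oocytes and fibroblasts in grey. ENSBTAG00000007392 is low from the 2-cell stage, and ENSBTAG00000014834 and ENSBTAG00000038976 are lost over several stages. ENSBTAG00000014373 falls most between the 2-cell and 8-cell stages and stays present in all later groups. ENSBTAG00000013723 and ENSBTAG00000015780 are higher again in morulae or blastocysts than at the 8-cell stage.

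At the 2-cell stage no member was called between scNT and IVF embryos. In limma 0 of 48 members were higher and 0 lower in scNT 2-cell embryos, where 0.0328% of all tested genes were higher and 0% lower. At an unadjusted p under 0.05 there were 2 members, beside 3.32% of all tested genes, edgeR called 0, and the smallest limma adjusted p among members was 0.833. The fitted difference was above 0 for 45 of 48 members, with a median of 0.33, beside 59.3% of all tested genes and a median of 0.07. Without IVF library 3 it was above 0 for 33 members. The libraries did not overlap, with scNT higher, for 2 members, against 2.39% of all tested genes.

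The choice of members required IVF 8-cell embryos to be low, which favours higher values in scNT 8-cell embryos, so the values of this comparison are a description and no result. In limma 0 of 48 members were higher and 0 lower in scNT 8-cell embryos, and 0% of all tested genes were called in either direction. At an unadjusted p under 0.05 there were 19 members, beside 12.6% of all tested genes, and edgeR called 0. Same-numbered libraries deviated together at this stage, a pairing that is read from the data. With the replicate number as a block 2 members were called, both higher in scNT, beside 1.29% of all tested genes in either direction. The median difference was 0.61, above 0 for 43 of 48 members, beside 0.13 over all tested genes, where 59.3% were above 0. All 4 scNT libraries lay above all 4 IVF libraries for 11 of 48 members, against 3.14% of all tested genes.

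ENSBTAG00000014512 was among those 11, with 2883, 2275, 2919 and 3191 in scNT 8-cell libraries and 1586, 944, 1294 and 1699 in IVF 8-cell libraries. Its log2 difference was 1.05. IVF 8-cell library 2 was the lowest of its group for 35 of 48 members, and without it 0 members were called and 40 of 48 differences lay above 0. Without that library the rule would choose 41 genes, 37 of them in the list of 48, and without IVF 8-cell library 1 it would choose 65.

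Most members had a lower fitted level in scNT than in IVF morulae. In scNT morulae 13 of 48 members were lower and 3 higher than in IVF morulae (limma, Benjamini-Hochberg adjusted p under 0.05), where 11.3% of all tested genes were lower and 7.37% higher. The median log2 difference was -0.94 over the members and 0.05 over all tested genes, and it was below 0 for 38 of 48 members and 46.9% of all tested genes. All 3 scNT libraries lay below all 4 IVF libraries for 22 of 48 members, against 18.9% of all tested genes, and above them for 4 of 48, against 17% of all tested genes. Of the 48 members 46 passed the filter, 5 of them through 1 group alone, and without those 5 the counts were 11 lower and 3 higher.

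ENSBTAG00000000445 had 63.0, 69.8 and 45.3 normalised counts in scNT morula libraries 2, 3 and 4, against 284, 320, 365 and 172 in IVF morula libraries. The groups did not overlap, with means of 59.4 ± 12.6 in scNT (SD, n = 3) and 284.9 ± 82.4 in IVF (SD, n = 4), and the log2 difference was -2.21 ± 0.28 (SE, limma adjusted p = 0.00884). ENSBTAG00000023398 had 5.6, 22.4 and 15.1 in scNT morula libraries, against 23.1, 81.7, 120.8 and 86.6 in IVF morula libraries. IVF library 1 lay just above the highest scNT library, and the log2 difference was -2.33 ± 0.62 (SE, limma adjusted p = 0.0355).

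ENSBTAG00000013723 was higher in scNT morulae, with 170.3, 174.4 and 188.9 normalised counts, against 126.5, 93.6, 105.8 and 128.6 in IVF morulae. The log2 difference was 0.65 ± 0.19 (SE, limma adjusted p = 0.0411). ENSBTAG00000007402 had 82.8, 83.5 and 89.2 in scNT and 35.5, 49.0, 56.7 and 50.6 in IVF morulae, with a log2 difference of 0.83 ± 0.24 (SE, limma adjusted p = 0.0428). The groups did not overlap for either gene. Both calls were lost when any 1 of the 7 libraries was left out, with the direction kept, when the filter was dropped, and when the libraries were scaled to equal totals.

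The count of 16 calls in morulae fell when any 1 of the 7 libraries was left out, and each such refit also has fewer libraries. It was 8, 2, 4 and 5 without IVF library 1, 2, 3 or 4. Without scNT library 2 or 4 it was 10, and without scNT library 3 it was 14. ENSBTAG00000000445 was called in each of the 7 refits without 1 library, and ENSBTAG00000023398 was not called without IVF library 2, 3 or 4 or scNT library 2 or 4. When libraries were scaled to equal totals, the median over all tested genes moved by more than 0.1, to -0.11, and 14 members were lower and 0 higher. The direction of the list was steadier than its calls: between 38 and 40 of 48 members lay below 0 in each refit without 1 library.

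**Figure D4:**
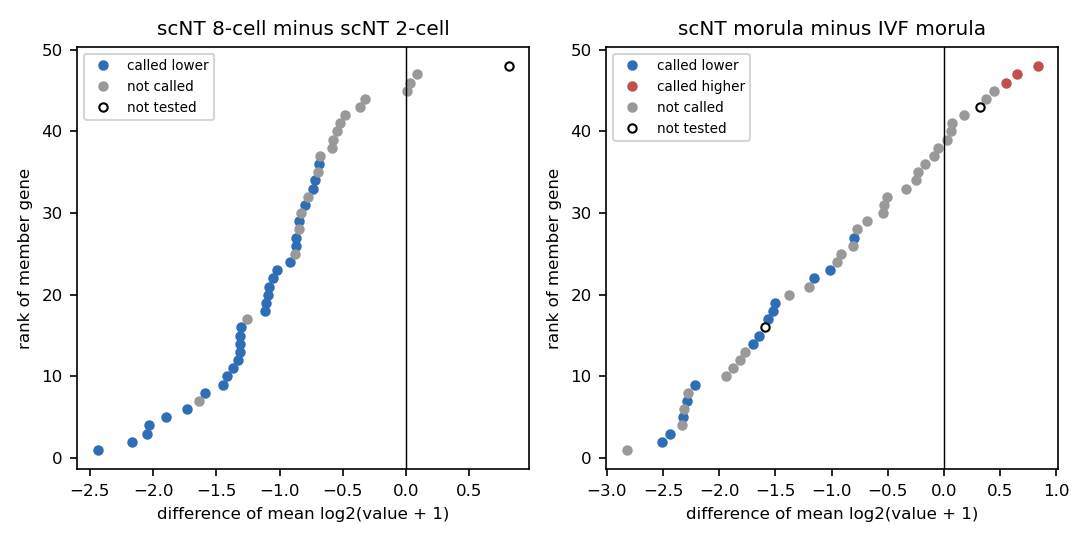
Difference of log2(value + 1) for the 48 members in scNT 8-cell minus scNT 2-cell embryos and in scNT minus IVF morulae, with members called by limma at an adjusted p under 0.05 marked. Of the 48 members 44 lie below 0 at the scNT 8-cell step and 38 in scNT against IVF morulae.

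The step from 8-cell embryo to morula in scNT embryos brought further falls. In scNT morulae 34 of 48 members were lower and 4 higher than in scNT 8-cell embryos (limma, Benjamini-Hochberg adjusted p under 0.05), where 37.7% of all tested genes were lower and 31.2% higher. The median log2 difference was -2.09 over the members and -0.17 over all tested genes. All scNT morula libraries lay below all scNT 8-cell libraries for 36 of 48 members, against 38.6% of all tested genes. Of the 47 members that passed the filter, 6 did so through 1 group alone, and without those 6 the counts were 28 lower and 4 higher. The IVF version of this step starts from the 8-cell level that chose the members and was not tested.

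ENSBTAG00000038976 had 21.6, 43.6 and 1.5 in scNT morula libraries and 335, 352, 387 and 282 in scNT 8-cell libraries. The groups did not overlap, scNT morula library 4 was lowest, and the log2 difference was -4.63 ± 0.86 (SE, limma adjusted p = 0.00176). The difference for ENSBTAG00000023398 was -4.11 ± 0.43 (SE, limma adjusted p = 9.49e-05), with 5.6 to 22.4 in scNT morula and 191.8 to 258.7 in scNT 8-cell libraries. In the other direction, ENSBTAG00000013723 had 170.3, 174.4 and 188.9 in scNT morula libraries against 39.7, 38.5, 29.2 and 37.7 in scNT 8-cell libraries, a log2 difference of 2.27 ± 0.26 (SE, limma adjusted p = 0.000125). ENSBTAG00000007402 had 82.8 to 89.2 in scNT morula and 7.4 to 46.7 in scNT 8-cell libraries, a log2 difference of 2.09 ± 0.56 (SE, limma adjusted p = 0.00876). In scNT embryos, transcript of these 2 genes was thus low at the 8-cell stage and higher again in morulae. In IVF embryos the median of ENSBTAG00000013723 was 34.9 at the 8-cell stage and 116.15 in morulae. That of ENSBTAG00000007402 was about the same in both IVF groups, 49.35 and 49.8.

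In blastocysts few members were called between the methods. Of 48 members, 1 was higher and 0 lower in scNT than in IVF blastocysts (limma, Benjamini-Hochberg adjusted p under 0.05), where 2.53% of all tested genes were higher and 3.42% lower. There were 8 members at an unadjusted p under 0.05, beside 21.6% of all tested genes, and 27 of 48 passed the filter. The median log2 difference was 0.08 over the members and -0.01 over all tested genes. The called member was ENSBTAG00000015780, with 1661, 1659, 1436 and 1878 in scNT and 1036, 1155, 1413 and 1060.4 in IVF blastocyst libraries. The groups did not overlap, scNT library 3 and IVF library 3 were close, and the log2 difference was 0.51 ± 0.13 (SE, limma adjusted p = 0.0355). The call was lost without IVF library 1, 2 or 4 or scNT library 1 or 4, with adjusted p between 0.0579 and 0.0995, and with equal library totals, where the median of all tested genes was -0.16. Without IVF library 4 another member was called in its place.

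Between morula and blastocyst the scNT counts were not above the shares of all tested genes, and the IVF count of lower members rests in part on members that passed the filter through 1 group alone. In IVF blastocysts 28 of 48 members were lower and 3 higher than in IVF morulae (limma, Benjamini-Hochberg adjusted p under 0.05), where 30.3% of all tested genes were lower and 29.6% higher. In scNT blastocysts 10 of 48 were lower and 4 higher than in scNT morulae, where 26.1% of all tested genes were lower and 21.6% higher. The filter bears on both counts: 45 members passed it in IVF, 14 of them through 1 group alone, and without those 14 there were 14 lower and 3 higher. In scNT 31 members passed, 3 through 1 group alone, and without those 3 there were 7 lower and 4 higher. The median log2 difference over the members was -1.22 in IVF and -0.54 in scNT embryos, beside 0.03 and -0.09 over all tested genes in those comparisons. Scaled to equal totals, all tested genes had medians of -0.37 in IVF and -0.49 in scNT embryos. The difference between the IVF and scNT steps was not tested.

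The lowest fitted values at this step belonged to genes that passed the filter through the IVF morulae alone. ENSBTAG00000038976 had 0, 0, 2.5 and 3.8 in IVF blastocyst and 146.6, 62.4, 112.2 and 79.7 in IVF morula libraries, with a log2 difference of -5.57. ENSBTAG00000023398 had 3.7, 0, 0 and 0 in IVF blastocyst libraries, with a log2 difference of -5.53. With a pseudocount of 5 these differences were -3.98 and -3.66, so their size is set by the scale, and since the filter required a high morula level no test is given for them. In scNT embryos ENSBTAG00000001842 had 1.7, 18.6, 7.7 and 6.4 in blastocyst and 110.1, 166.9 and 148.1 in morula libraries, a log2 difference of -4.20 ± 0.59 (SE, limma adjusted p = 0.0007). ENSBTAG00000014834 had 14.9, 32.5, 23.0 and 29.2 in scNT blastocyst and 184.4, 210.5 and 96.7 in scNT morula libraries, a log2 difference of -2.65 ± 0.37 (SE, limma adjusted p = 0.000636). Neither scNT pair of groups overlapped. The count of 14 calls in scNT was 8 without scNT morula library 2 and 9 without scNT blastocyst library 1.

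Other members were higher in blastocysts than in morulae. ENSBTAG00000015780 had 1661, 1659, 1436 and 1878 in scNT blastocyst libraries, against 352, 387 and 272 in scNT morula libraries, a log2 difference of 2.30 ± 0.16 (SE, limma adjusted p = 4.67e-05). In IVF it had 1036, 1155, 1413 and 1060.4 in blastocyst and 413, 320, 334 and 363 in morula libraries, a log2 difference of 1.70 ± 0.14 (SE, limma adjusted p = 1.47e-07). Its blastocyst median was 91.7% of the oocyte median in scNT and 61.2% in IVF embryos. ENSBTAG00000007402 had 120.9, 134.7, 104.1 and 90.1 in IVF blastocyst and 35.5, 49.0, 56.7 and 50.6 in IVF morula libraries, a log2 difference of 1.22 ± 0.22 (SE, limma adjusted p = 0.000321). In scNT embryos ENSBTAG00000014373 had 303, 359, 359 and 333 in blastocyst and 246.5, 282.8 and 151.1 in morula libraries, with a log2 difference of 0.62 ± 0.21 (SE, limma adjusted p = 0.0386). That last call was lost without scNT morula library 2 or 4, without any 1 of the scNT blastocyst libraries, and with equal library totals, where the difference was 0.22. A total of 7 members, a count made after the values were seen, had a higher blastocyst than 8-cell median in both scNT and IVF embryos.

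The members also differed in whether they were present outside the embryo. Of the 48 members, 17 had at most 5 normalised counts in every fibroblast and blastocyst-derived cell library. The choice of members required a low level in IVF blastocyst-derived cells, which favours this count, and the share of all genes was not taken. Their median level left was 59.9% in scNT 2-cell and 48.8% in IVF 2-cell embryos, 35.2% in scNT and 18.9% in IVF 8-cell embryos, 3.73% in scNT and 10.6% in IVF morulae, and 0.488% in scNT and 0.453% in IVF blastocysts. A further 18 members held at least 10 in all 47 libraries, and for these the median level left was 74.8% in scNT 2-cell and 56.8% in IVF 2-cell embryos, 30.4% in scNT and 20.7% in IVF 8-cell embryos, 18.2% in scNT and 18.5% in IVF morulae, and 15.9% in scNT and 16.0% in IVF blastocysts. At the morula the first set was lower in scNT than in IVF embryos, while the second set was at nearly the same level. A member under 10 in any scNT morula library could not enter the second set. The contrast between the sets is therefore partly fixed by how they were formed, and nothing is read from it. Both sets were formed after the values were seen and are given without a test. One member, ENSBTAG00000006208, named here after its values were seen, had a higher median in fibroblasts, 373, than in oocytes, 245.7.

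Fibroblast library 3 was the highest of its group for 23 of 48 members, against 10, 5 and 6 for libraries 1, 2 and 4. It was the lowest of the group for 9 members. Library 3 stood furthest apart for 3 members. ENSBTAG00000007392 had 85021 normalised counts there, against 0, 0 and 38.4 in fibroblast libraries 1, 2 and 4. ENSBTAG00000001687, which is named only because of these values, had 29655 there against 1.0, 0 and 4.5, and ENSBTAG00000007239 had 6557 there against 21.1, 25 and 24.1. All 3 were over 100 times the highest other fibroblast library on the value + 1 scale, and the next member, ENSBTAG00000014512, was 7.22 times it. These genes raised the members' summed share in that library to 1.49%, whereas the other fibroblast libraries were at or under 0.0539%. In IVF 2-cell library 3 the members above the other 3 libraries of that group were ENSBTAG00000007239, with 43.9 against at most 2.6, and ENSBTAG00000001687, with 240.1 against at most 150.5. Fibroblasts entered none of the limma comparisons above and did not choose the 48 members. They did enter the definition of the set of 17 members, which is given without a test.

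**Figure D5:**
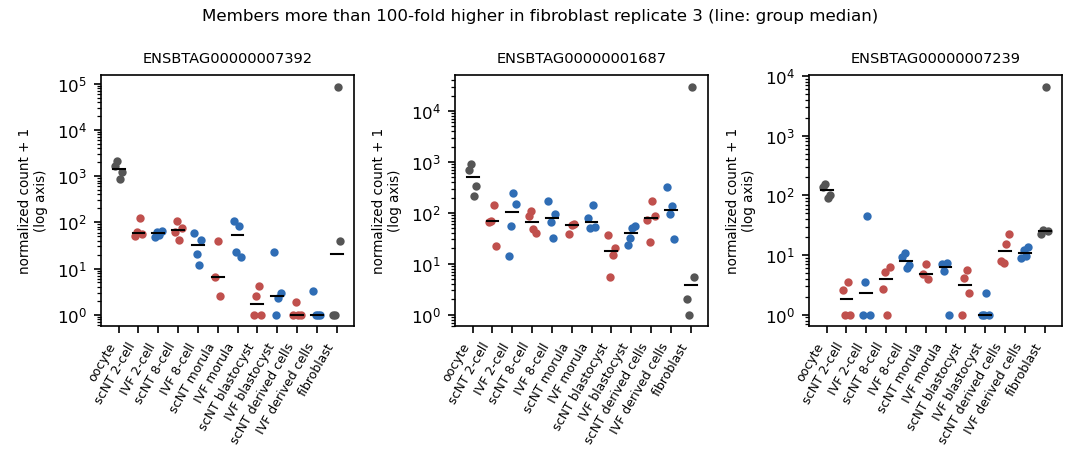
Normalised counts (log axis) of ENSBTAG00000007392, ENSBTAG00000001687 and ENSBTAG00000007239 in every library of each group, with scNT in red, IVF in blue and oocytes and fibroblasts in grey. Fibroblast library 3 lies at 85021, 29655 and 6557 for these 3 genes, while the other fibroblast libraries are at or under 38.4, 4.5 and 25.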

How the data were processed

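Per the labels' protocols, libraries came from the RNA fraction above 200 nt, by a low-input kit with repeated PCR. Per the submitters' processing notes, the tools were STAR, DESeq2, FastQC and MultiQC, and the genome build was UMD3.1. Their versions, the annotation and the read counter were not given in the sources used here. By content, the signal deposited by the authors was 1 normalised count per gene and library. With a tolerance of 0.05, between 99.7% and 100% of values were whole multiples of a library's step, which gave the reads used in edgeR 4.0.16. None of the 69 replicate pairs differed by as little as sampling noise (lowest chi-square per degree of freedom, 6.67).

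Members and lists were chosen with earlier results of these data known. A gene entered a test if its value was 10 or more in a number of libraries no lower than the size of the smaller group, and limma 3.58.1 was run (R 4.3.3; trend and robust options) on log2(value + 1), for the groups compared, two-sided, with p adjusted by Benjamini-Hochberg over all tested genes. Named members were called, had a mean of at least 50 and non-overlapping libraries, and were ordered by size of difference, with at most 2 identifiers per direction; members with the highest oocyte median or ratio, and genes nearest the limit, were also limited to 2. The test was also run on simulated data. The 4 gene lists and 5 marker lists by symbol could not be used, because 0 identifiers matched the RefSeq table (assembly ARS-UCD2.0), and no sequences are shown.

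Same-numbered libraries of scNT and IVF embryos deviated together at the 2-cell stage (correlations 0.593, 0.431, 0.683 and 0.118) and the 8-cell stage (0.375, 0.550, 0.563 and 0.231). The pairing is read from the data, with numbers from the titles; elsewhere the numbers were not treated as pairs. The protocols disagree on how many pools were made, and the library numbers here follow the table.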

Additional observations from a re-analysis of the deposited data

Results flagged for a closer look

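In 15 of 172 groups of 4 libraries, 1 library lay far from the other 3 by Dixon's ratio, at the 95% level. Chance gives about 1 in 20 such groups when they are independent and not picked by their values. These groups share libraries, so the 15 cannot be weighed against that rate. ENSBTAG00000001687 was included only because of its value in fibroblast library 3, and the summed share of that library is led by the same 3 members.

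Fibroblast libraries gave 6 of these. The value standing apart was 85021 for ENSBTAG00000007392 (nearest other library 38.4), 29655 for ENSBTAG00000001687 (4.5), 6557 for ENSBTAG00000007239 (25), 4640 for ENSBTAG00000014512 (642), 1395 for ENSBTAG00000015780 (891), and 1.49% for the members' summed share (0.0539%), all in library 3.

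In IVF 2-cell embryos it was 722.7 for ENSBTAG00000000445 (nearest 2087), 43.9 for ENSBTAG00000007239 (2.6) and 95.0 for ENSBTAG00000007402 (52.7). The first 2 of these were in library 3 and the last in library 1. In IVF 8-cell library 2, ENSBTAG00000000445 had 108.8 (nearest 591). In scNT embryos, ENSBTAG00000007392 had 120.3 in 2-cell library 3 (nearest 59.9), and ENSBTAG00000018416 had 48 in an 8-cell library (nearest 32.0). ENSBTAG00000014834 had 8685 in oocyte library 2 (nearest 6044). The members' summed share was 0.0615% in IVF blastocyst library 3 (nearest 0.0510%) and 0.113% in IVF morula library 3 (nearest 0.0931%).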

How the results depend on the processing

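The list held 48 genes, 8 with a limit of 8 in place of 4, 52 with group means, 51 with equal totals, and 41 to 65 without 1 library. No named member's difference reversed under any alternative run. Without 1 library, the 29 calls for scNT 8-cell against scNT 2-cell embryos ran from 16 to 31, the 16 for scNT against IVF morulae from 2 to 14, and the 1 for scNT against IVF blastocysts from 0 to 1. The 18 for IVF 2-cell embryos against oocytes ran from 6 to 30, and the 14 for scNT blastocysts against scNT morulae from 8 to 12.

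With the replicate block, where pairing was found, 2 members were called between scNT and IVF 8-cell embryos and 0 at the 2-cell stage. Where only a number was shared, the block left 0 calls in morulae, 0 in blastocysts and 6 for scNT blastocysts against scNT morulae. Without a filter 11 members were called for IVF 2-cell embryos against oocytes, and with equal totals 0 in blastocysts. The cause was not tested. Low members limit the later stages: 12 in scNT and 9 in IVF blastocysts had at most 5 counts in every library.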
